A study of Mus musculus with 4 samples.

Results

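The 9 genes described here encode costimulatory members of the tumour necrosis factor (TNF) receptor superfamily and a pair of their ligands, as CD8 T cells that infiltrated mouse hepatocellular carcinoma transcribed them. They were chosen by name, as the receptors Tnfrsf9 (4-1BB), Tnfrsf4 (OX40), Tnfrsf18 (GITR), Cd27, Tnfrsf1b (TNFR2), Tnfrsf14 (HVEM) and Tnfrsf25 (DR3) and the ligands Tnfsf14 (LIGHT) and Tnfsf8 (CD30L). All 9 were among the 14934 genes of the deposited table, and all 9 passed the filter on low counts, with 11563 genes tested. The tumour-infiltrating cells had been sorted by flow cytometry into JAML-positive CD8 T cells (2 libraries, replicates A and B) and JAML-negative CD8 T cells (2 libraries, replicates A and B). JAML is an adhesion molecule of the cell surface that can costimulate T cells. Cells of both groups were of wild-type genotype. Strain, sex, age, the tumour model, and whether A and B came from separate animals, pools or sorts were not given in the sources used here, so that each p-value speaks of the variation among 4 libraries alone, and this variation may be technical.

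Receptors of this superfamily bind trimeric ligands and recruit TRAF adaptor proteins to their cytoplasmic tails, from where the NF-kappaB transcription factors and mitogen-activated protein kinases are switched on. In CD8 T cells they act after the antigen receptor and CD28: CD27, HVEM and TNFR2 are carried by resting or memory cells as well as activated ones, whereas 4-1BB, OX40 and GITR are induced or raised by antigen recognition. 4-1BB in particular serves as a marker of recent antigen encounter in tumours. LIGHT is a ligand of HVEM and CD30L is a ligand of CD30, and both can be displayed by activated T cells.

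Total counts were 27717149 and 30569728 in JAML-positive libraries A and B, and 27819178 and 27530187 in JAML-negative libraries A and B. JAML-positive library A stood apart, with 11.67% of its counts in ribosomal protein genes, against 7.23% to 8.04% in the other libraries, and 0.07% in Malat1, against 0.12% to 0.146%. The transcript of the sort marker, Jaml, was at 137.6 and 146.8 CPM (counts scaled by library size, with the TMM factors of edgeR) in JAML-positive and 130.7 and 116.7 CPM in JAML-negative libraries, a log2 fold change of 0.20 (SE 0.26, edgeR adjusted p = 0.881), so that the group names rest on the labels. Cd8a was at 1048 ± 5.48 CPM in JAML-positive and 1069 ± 63.3 CPM in JAML-negative cells (SD, n = 2 each). Of the 7 CD8 T cell markers 0 passed the test, but 0 of all 11563 genes did, so that this count does not set these markers apart.

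With edgeR's quasi-likelihood test, 0 of the 9 genes passed an adjusted p of 0.05, and 0 of all 11563 genes did (0%, smallest adjusted p = 0.227). At an unadjusted p under 0.05 there was 1 of the 9, Tnfrsf9, against 7.65% of all genes. With DESeq2 1 of the 9 passed an adjusted p of 0.05, again Tnfrsf9, against 7.65% of all genes (536 higher and 349 lower). Limma-voom placed 0 genes past it. Both libraries of a group lay above both of the other for 3 of the 9, Tnfrsf9 and Tnfrsf4 with higher and Tnfsf14 with lower values in JAML-positive cells, against 38.5% of all genes, so that this share was near the background. Of the 9 log2 fold changes 5 were above 0 and 4 below, with a median of 0.05, where all tested genes had 50.7% above 0 and a median of 0.01.

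The start regions of 2 of the genes are shown because they carried both motifs that were looked for, and because these genes had the largest fold changes in each direction. The letters are those of RefSeq on GRCm38.p6, read 5′ to 3′ on the strand of the gene, from 250 bases before to 50 bases after an annotated start. Capitals mark an NF-kappaB-type motif, GGGA followed by any 4 bases and CC, and an AP-1-type motif, TGANTCA, each searched on both strands and not overlapping here. The first window belongs to a start inside the Tnfrsf9 gene (plus strand, chr4:150927749-150928048), and the second to Tnfsf14 (minus strand, chr17:57194132-57194431).
Tnfrsf9: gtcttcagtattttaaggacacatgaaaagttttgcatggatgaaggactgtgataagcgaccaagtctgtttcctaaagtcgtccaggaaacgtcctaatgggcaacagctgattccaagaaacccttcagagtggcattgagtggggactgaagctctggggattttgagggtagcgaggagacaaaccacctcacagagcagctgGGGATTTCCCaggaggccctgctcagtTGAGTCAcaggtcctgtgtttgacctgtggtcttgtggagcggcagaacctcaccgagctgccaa
Tnfsf14: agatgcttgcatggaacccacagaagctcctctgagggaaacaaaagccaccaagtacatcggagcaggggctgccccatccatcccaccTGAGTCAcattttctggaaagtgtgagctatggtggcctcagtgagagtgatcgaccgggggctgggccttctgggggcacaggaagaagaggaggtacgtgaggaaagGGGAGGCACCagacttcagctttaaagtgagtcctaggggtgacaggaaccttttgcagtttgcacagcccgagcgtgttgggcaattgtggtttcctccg

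In the Tnfrsf9 window the NF-kappaB form GGGATTTCCC began 42 bases before the start and TGAGTCA began 15 bases before it. The other annotated start of Tnfrsf9 (chr4:150919905-150920204) held neither motif. In the Tnfsf14 window GGGAGGCACC began 51 bases and TGAGTCA 160 bases before the start. Over the 11 windows of the 9 genes, 4 held the NF-kappaB-type motif (also 1 window each of Tnfrsf14 and Tnfrsf25) and 2 held TGANTCA. Of 32851 promoter windows of the same length, 20.7% held the NF-kappaB-type motif, 7.81% held TGANTCA and 1.26% held both. Of the 2 genes with both motifs, Tnfrsf9 was the higher in JAML-positive cells and Tnfsf14 the lower, as given below.

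**Figure D1:**
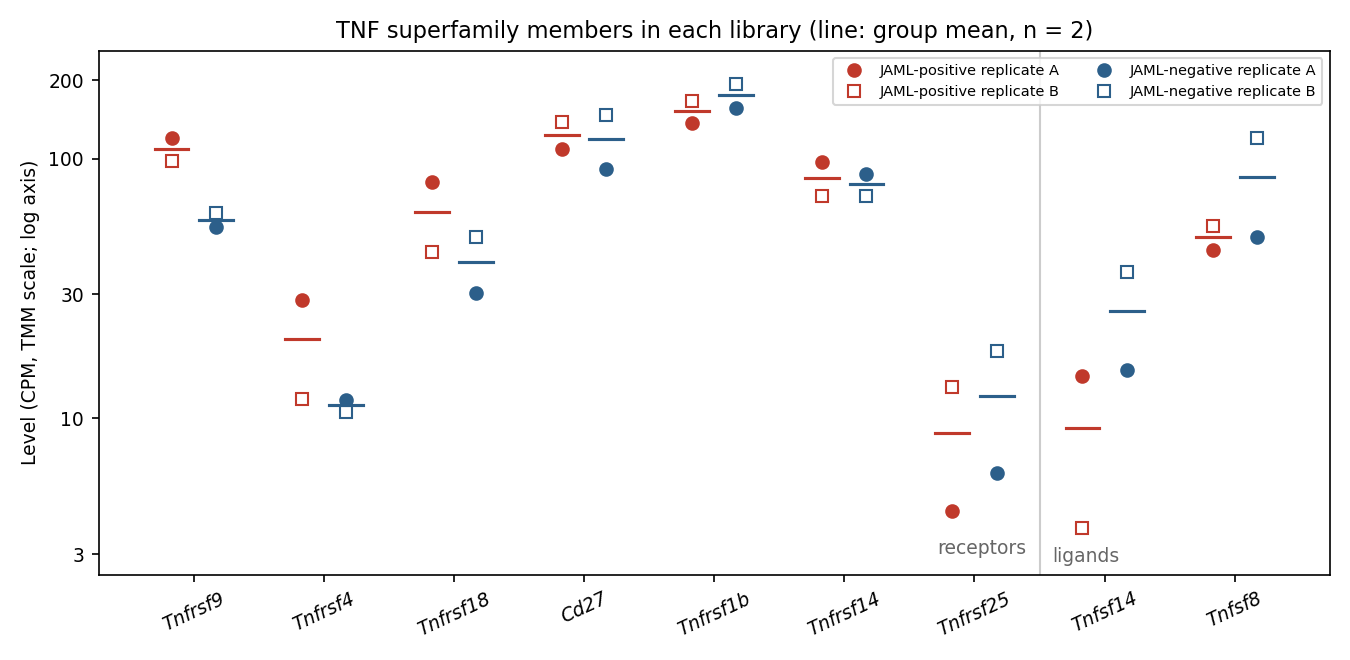
Level of each of the 9 genes in each library, in CPM on a log axis, JAML-positive libraries (red) left of JAML-negative ones (blue), with filled circles for replicate A (library A), open squares for replicate B (library B) and a line at each group mean. For Tnfrsf9 the red symbols (97.7 and 120.0 CPM) lie above the blue ones (54.3 and 61.9 CPM), while for most other genes the symbols of the groups interleave.

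Tnfrsf9 encodes 4-1BB (CD137), an inducible receptor that promotes survival and effector function of CD8 T cells and is a target of agonist antibodies. It had 3173 and 3056 counts in JAML-positive libraries A and B and 1534 and 1703 counts in JAML-negative libraries A and B. On the CPM scale these were 120.0 and 97.7 CPM in JAML-positive cells and 54.3 and 61.9 CPM in JAML-negative cells. The groups did not overlap, and the lowest JAML-positive library lay above the highest JAML-negative one. The mean was 108.9 ± 15.8 CPM in JAML-positive and 58.1 ± 5.34 CPM in JAML-negative cells (SD, n = 2 each), a fold of 1.87 with a 95% interval of 1.14 to 3.06. The log2 fold change was 0.90 (SE 0.33) with an unadjusted p of 0.0172 and an adjusted p of 0.609 by edgeR over all genes, which placed Tnfrsf9 at rank 252 of 11563 by p. DESeq2 gave it a log2 fold change of 0.89 and an adjusted p of 0.00557, and over all other settings tried the adjusted p was 0.586 to 0.881. With any 1 library left out the log2 fold change was between 0.75 and 1.04, the lowest being without JAML-positive library A.

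Tnfrsf4 and Tnfrsf18 encode OX40 and GITR, receptors that are raised on activated T cells and are abundant on regulatory T cells. The genes are neighbours on mouse chromosome 4, Tnfrsf4 at 156013595 to 156016613 and Tnfrsf18 at 156026322 to 156028894 (GRCm38.p6), 9.7 kb apart and on the same strand. Tnfrsf4 had 28.5 and 11.9 CPM in JAML-positive libraries A and B, against 11.8 and 10.6 CPM in JAML-negative libraries A and B. Only JAML-positive library A stood high for this gene, and the other 3 libraries were alike. Its log2 fold change came to 0.81 (SE 0.77, edgeR adjusted p = 0.815, 95% interval -0.86 to 2.48), and to 0.09 without JAML-positive library A.

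Tnfrsf18 had 81.0 and 43.5 CPM in JAML-positive libraries A and B, against 30.3 and 49.9 CPM in JAML-negative libraries A and B. Here too JAML-positive library A was the highest library, and the groups overlapped, since JAML-positive library B lay below JAML-negative library B. Its log2 fold change came to 0.62 (SE 0.46, edgeR adjusted p = 0.748, interval -0.38 to 1.61). It was 0.12 without JAML-positive library A, 0.30 without JAML-negative library A, 1.01 without JAML-positive library B and 1.03 without JAML-negative library B. A further limit is that 27.2% of the exonic bases of Tnfrsf18 overlap Gm16008 on the opposite strand, and whether counting used strand was not given in the sources used here. Gm16008 itself had 46 and 104 counts in JAML-positive and 0 and 0 counts in JAML-negative libraries, where Tnfrsf18 had 857 to 2142 counts. The effect of the overlap on the counts of Tnfrsf18 was not tested.

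Regulatory T cells are a cell type in which these receptors are abundant, and some of their markers differed in level between the groups. The defining factor Foxp3 had 267 and 0 counts in JAML-positive libraries A and B, against 30 and 128 counts in JAML-negative libraries A and B. Foxp3 was thus highest in the library where Tnfrsf4 and Tnfrsf18, and also Tnfrsf9 and Tnfrsf14, were highest, and at 0 in JAML-positive library B, where Tnfrsf9 was still at 97.7 CPM. Of the 8 markers of regulatory and CD4 T cells 6 were higher and 2 lower in JAML-positive cells, with 0 past the test, summed levels of 680 and 755 CPM in JAML-positive and 580 and 508 CPM in JAML-negative libraries, and Ccr8 at 0 in JAML-negative cells. Il2ra (log2 fold change 1.13, SE 0.40) and Ctla4 (0.56, SE 0.23) belong to that list and are also expressed by activated CD8 T cells. Also on that list, Il1rl1 was at 13.6 and 18.8 CPM in JAML-positive and 0.106 and 2.51 CPM in JAML-negative libraries (3.66, SE 1.29). Ccr8 had 279 and 143 counts in JAML-positive and 0 and 0 counts in JAML-negative libraries. Ikzf2, which encodes the regulatory T cell factor Helios, was at 41.8 and 58.6 CPM in JAML-positive and 104.4 and 83.0 CPM in JAML-negative libraries (-0.89, SE 0.36), and Izumo1r, which encodes folate receptor 4, had -0.76 (SE 0.68). The part of these cells in the values of the 3 receptors was not tested. In bulk samples, fewer cells of a type and less RNA per cell cannot be told apart.

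Cd27, Tnfrsf1b and Tnfrsf14 were the receptors with the most counts apart from Tnfrsf9, and none separated the groups. Cd27, the receptor for CD70 that sustains naive and memory T cells, had 108.7 and 138.0 CPM in JAML-positive libraries A and B, against 91.3 and 147.6 CPM in JAML-negative libraries A and B. The JAML-negative libraries enclosed the JAML-positive ones, with a log2 fold change of 0.05 (SE 0.31, edgeR adjusted p = 0.981) and a 95% interval of 0.649-fold to 1.66-fold. Tnfrsf1b, the TNF receptor without a death domain, had 137.4 and 167.0 CPM in JAML-positive and 157.2 and 193.9 CPM in JAML-negative libraries A and B. These groups overlapped as well (log2 fold change -0.20, SE 0.26, edgeR adjusted p = 0.876, interval 0.588-fold to 1.29-fold).

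Tnfrsf14 encodes HVEM, which receives LIGHT and also engages the inhibitory receptors BTLA and CD160. It had 97.3 and 71.6 CPM in JAML-positive and 87.4 and 71.9 CPM in JAML-negative libraries A and B, with overlapping groups (log2 fold change 0.08, SE 0.33, edgeR adjusted p = 0.973, interval 0.638-fold to 1.74-fold). The partners of HVEM were present in both populations, Btla at 72.6 ± 7.77 CPM in JAML-positive and 76.5 ± 23.5 CPM in JAML-negative cells (log2 fold change -0.07, SE 0.35), and Cd160 at 119.2 ± 43.85 CPM in JAML-positive and 128.5 ± 6.30 CPM in JAML-negative cells (-0.12, SE 0.31). Neither passed the test (edgeR adjusted p = 0.976 for Btla and 0.951 for Cd160).

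Tnfrsf25 encodes DR3, the receptor for TL1A, and had the lowest level of the 7 receptors. Its counts were 116 and 412 in JAML-positive libraries A and B, and 174 and 502 in JAML-negative libraries A and B. Library B was at 3.0 times library A among the JAML-positive and 2.96 times library A among the JAML-negative libraries on the CPM scale, so that the spread within groups exceeded the difference between them (log2 fold change -0.41, SE 0.94, edgeR adjusted p = 0.940). The sign changed without JAML-positive library A (0.12) or JAML-negative library B (0.57). Its ligand gene Tnfsf15 had 0 and 0 counts in JAML-positive and 1 and 1 counts in JAML-negative libraries.

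Among the ligands, Tnfsf14 (LIGHT), which binds HVEM and the lymphotoxin beta receptor, had 386 and 118 counts in JAML-positive libraries A and B, against 435 and 1005 counts in JAML-negative libraries A and B. In CPM these were 14.6 and 3.77 in JAML-positive and 15.4 and 36.5 in JAML-negative cells. The groups did not overlap, but JAML-positive library A and JAML-negative library A were close, and the remaining pair of libraries lay far apart. The log2 fold change was -1.56 (SE 0.81, unadjusted p = 0.0791, edgeR adjusted p = 0.614), and the 95% interval ran from 0.0998-fold to 1.16-fold. It was -0.83 without JAML-positive library B, -0.80 without JAML-negative library B, and -2.77 without JAML-positive library A.

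Tnfsf8 (CD30L), the ligand of CD30, had 44.6 and 55.1 CPM in JAML-positive and 49.9 and 119.7 CPM in JAML-negative libraries A and B. JAML-negative library B alone was high, and the other 3 libraries were within 44.6 to 55.1 CPM. Its log2 fold change came to -0.76 (SE 0.44, edgeR adjusted p = 0.646), and to 0.01 without JAML-negative library B. Tnfrsf8, which encodes its receptor CD30, had 112 and 155 counts in JAML-positive and 166 and 150 counts in JAML-negative libraries. Summed over both ligands the level was 59.2 and 58.8 CPM in JAML-positive and 65.3 and 156.2 CPM in JAML-negative libraries, and summed over the 7 receptors 577.2 and 542.8 CPM in JAML-positive and 438.5 and 553.9 CPM in JAML-negative libraries. The sums of the receptors overlapped between groups and those of the ligands did not, where 38.5% of all single genes did not overlap either. For the ligands JAML-negative library A was close to the JAML-positive libraries, and JAML-negative library B alone was far above them.

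**Figure D2:**
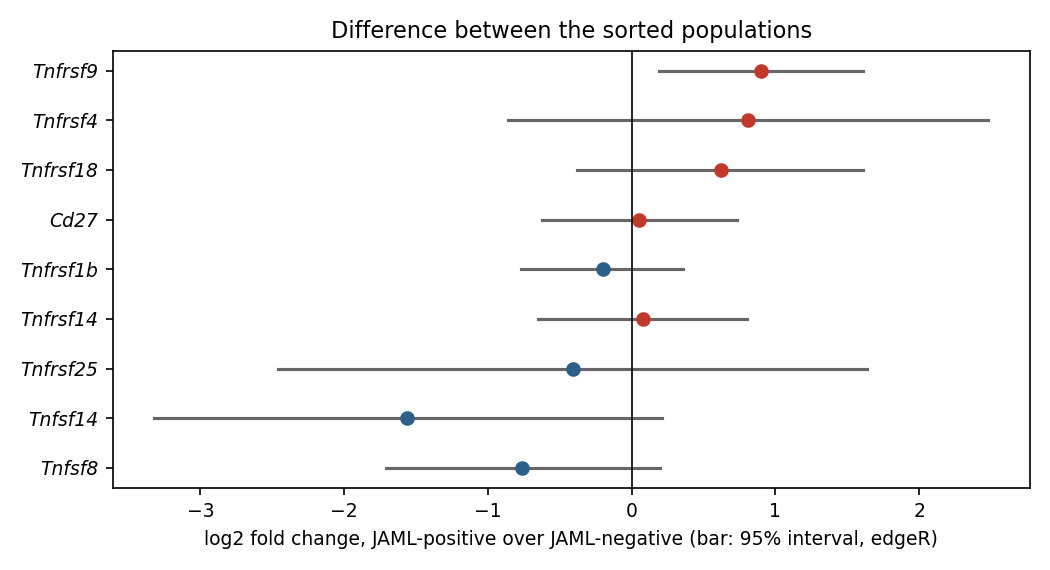
Log2 fold change of each gene, JAML-positive over JAML-negative, with its 95% interval from edgeR; red points are above 0 and blue points below. The interval of Tnfrsf9 (0.19 to 1.61) lies above 0 before adjustment over all genes, and those of the other 8 genes include 0.

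**Figure D3:**
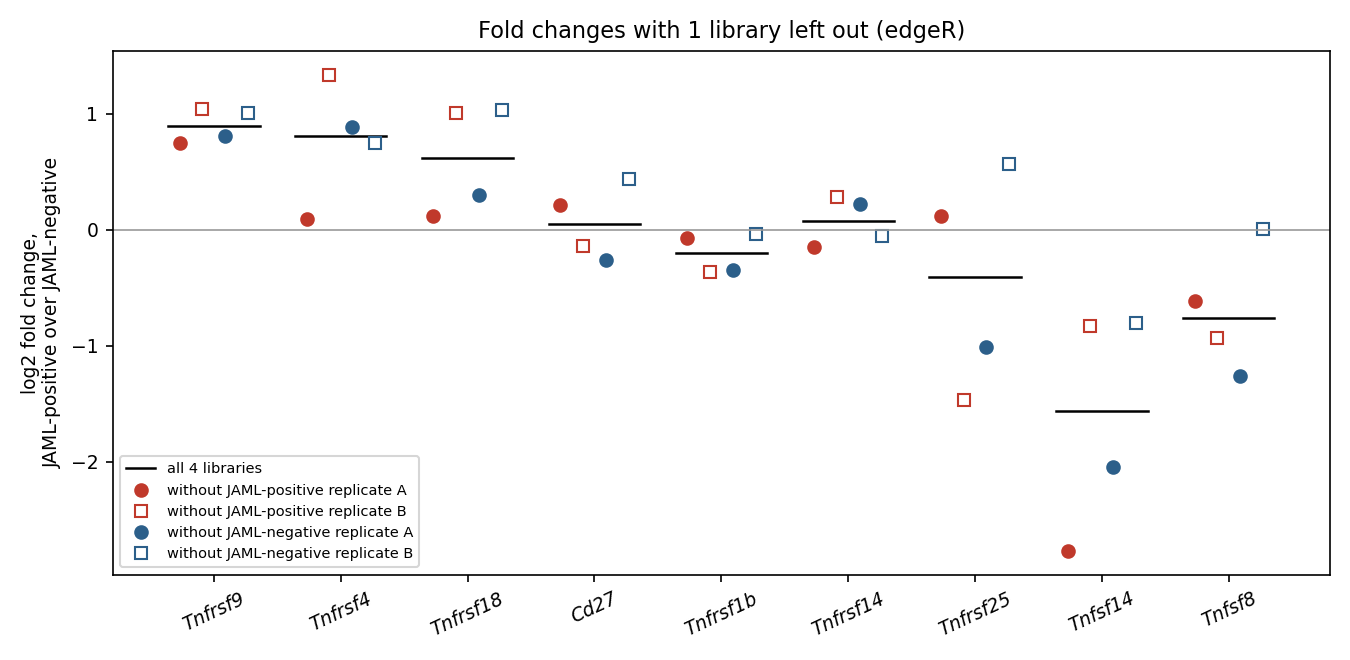
Log2 fold change of each gene with all 4 libraries (black line) and with each library left out in turn (red for a JAML-positive and blue for a JAML-negative library, filled circles for replicate A and open squares for replicate B). Tnfrsf9 stays within 0.75 to 1.04, Tnfrsf4 and Tnfrsf18 come to 0.09 and 0.12 without JAML-positive library A, and Tnfsf8 to 0.01 without JAML-negative library B.

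Levels were compared between genes per kilobase of the longest GENCODE transcript, averaged over the 4 libraries. Cd27 was highest at 77.9 CPM per kilobase, followed by Tnfrsf14 at 69.9, Tnfrsf18 at 43.1, Tnfrsf1b at 42.9 and Tnfrsf9 at 39.5 CPM per kilobase. Cd27 lay at the 93.4th percentile and Tnfrsf9 at the 85.1th percentile of 10959 tested genes with a length. Lower levels per kilobase were found for Tnfsf8 (17.7), Tnfrsf4 (14.4), Tnfsf14 (9.51) and Tnfrsf25 (6.31). Every pair of neighbours in this order overlapped in range over the 4 libraries. Some genes 2 ranks apart did not, such as Tnfrsf14 at 61 to 82.9 and Tnfrsf1b at 36 to 50.8 CPM per kilobase. At the ends of the order, Cd27 was at 58.6 to 94.7 and Tnfrsf25 at 2.64 to 11.0 CPM per kilobase. With the mean length of coding transcripts in place of the longest, Cd27 (122.0) and Tnfrsf14 (104.0) were still the first and second, and Tnfrsf9 (62.7) came before Tnfrsf18.

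Beyond sequence and function, 7 of the 9 genes lie on chromosome 4, Cd27 lies on chromosome 6 and Tnfsf14 on chromosome 17. Within this chromosome the 6 receptor genes from Tnfrsf1b (145212368 to 145246870) to Tnfrsf18 stand in one region, with gaps of up to 5673.3 kb between neighbours, while Tnfsf8 (63831202 to 63861508) lies 81350.9 kb away from the nearest of them. Tnfrsf9 occupies 150920155 to 150946104.

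Genes with the pattern most like Tnfsf14, whose log2 fold change was the largest of the 9 in absolute size, were sought among 5757 genes of at least 30 CPM by the root mean square difference of centred log2 CPM over the 4 libraries. They were Vps52 (0.321), Afmid (0.333), Klra5 (0.378), Chst10 (0.393) and Cpeb2 (0.414). The same measure was applied to Tnfrsf9 after its values had been seen, and gave Zpr1 (0.0218), Ptges3 (0.0566), Hat1 (0.0617), Cenpa (0.0634) and Dus1l (0.0657). Zpr1 was at 72.6 and 58.0 CPM in JAML-positive and 31.5 and 36.6 CPM in JAML-negative libraries, and Cenpa, the centromeric histone variant, at 132.6 and 109.2 CPM in JAML-positive and 59.9 and 62.0 CPM in JAML-negative libraries.

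The other receptors of the family, 19 genes of which 17 were in the table and 11 were tested, had 5 higher and 6 lower values in JAML-positive cells (median log2 fold change -0.22) and 0 past the test. Tnfrsf13b (TACI), best known from B cells, was at 24.4 ± 3.40 CPM in JAML-positive and 12.8 ± 4.18 CPM in JAML-negative cells (log2 fold change 0.94, SE 0.66, edgeR adjusted p = 0.735), and Tnfrsf1a, the TNF receptor with a death domain, had 0.37 (SE 0.50). Tnfrsf22, a decoy receptor with near-identical neighbouring copies that make its count uncertain, was at 7.07 ± 3.47 CPM in JAML-positive and 22.9 ± 10.8 CPM in JAML-negative cells (-1.65, SE 0.81, edgeR adjusted p = 0.609). Tnfrsf10b, the mouse TRAIL receptor, had -1.55 (SE 1.04).

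Of the 15 other ligands 11 were in the table and 8 were tested, with 4 higher and 4 lower values (median log2 fold change 0.08) and 0 past the test. The ligand of 4-1BB, Tnfsf9, which is typical of antigen-presenting cells, had 376 and 192 counts in JAML-positive and 82 and 2 counts in JAML-negative libraries. The groups did not overlap, with a log2 fold change of 2.71 (SE 1.45, edgeR adjusted p = 0.615). Tnfsf4, the ligand of OX40, had 0 and 98 counts in JAML-positive and 0 and 0 counts in JAML-negative libraries, and was not tested.

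Cd40lg, the CD40 ligand of activated helper T cells, had 356 and 1048 counts in JAML-positive libraries A and B, against 1 and 70 counts in JAML-negative libraries A and B (log2 fold change 4.24, SE 1.25, unadjusted p = 0.00448, edgeR adjusted p = 0.609). Tnfsf11 (RANKL) had 981 and 479 counts in JAML-positive and 0 and 96 counts in JAML-negative libraries (3.89, SE 1.19, edgeR adjusted p = 0.609). For both genes the JAML-positive libraries were higher, with a JAML-negative library near 0, which makes the size of the fold depend on that library. Beside them, Cd4 was at 153.5 ± 28.0 CPM in JAML-positive and 122.3 ± 3.14 CPM in JAML-negative cells (0.33, SE 0.27). The lower values included Tnf (-0.67, SE 0.57) and Tnfsf10, which encodes TRAIL (-0.26, SE 0.31).

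Downstream of the receptors, the 14 TRAF and IAP adaptor genes had 7 higher and 7 lower values (median log2 fold change 0.13, 0 past the test). Traf1, an adaptor of 4-1BB that NF-kappaB induces, was at 144.3 and 137.7 CPM in JAML-positive and 97.6 and 112.2 CPM in JAML-negative libraries A and B, without overlap (0.43, SE 0.27, edgeR adjusted p = 0.696). Traf2, which binds many of these receptors, was at 52.3 and 25.8 CPM in JAML-positive and 21.4 and 21.2 CPM in JAML-negative libraries (0.85, SE 0.56, edgeR adjusted p = 0.708). Tank and Birc2, which encode a TRAF-binding protein and cellular IAP1, had -0.47 (SE 0.32) and -0.40 (SE 0.28).

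In the list of NF-kappaB subunits, inhibitors and kinases 5 of 22 genes had higher and 17 lower values (median log2 fold change -0.22, 0 past the test), where the median of all tested genes was 0.01. Nfkb1, which encodes p105 and p50, was at 237.1 and 311.7 CPM in JAML-positive and 200.3 and 199.5 CPM in JAML-negative libraries (0.46, SE 0.24, edgeR adjusted p = 0.614). Relb, a subunit of the non-canonical arm, was at 38.3 and 48.7 CPM in JAML-positive and 70.1 and 69.6 CPM in JAML-negative libraries (-0.67, SE 0.38, edgeR adjusted p = 0.633). Nfkbie, which encodes an inhibitor of NF-kappaB, had -0.86 (SE 0.42, edgeR adjusted p = 0.609). Of the 22 genes 2 were higher and 7 lower without overlap of the groups, against 2343 higher and 2106 lower of all 11563 genes (38.5% in all). The share in both directions together was thus near the background. By direction, lower genes outnumbered higher ones in this list, while higher genes outnumbered lower ones among all genes. This imbalance was not tested.

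Among 8 genes that NF-kappaB or the receptors are known to raise, which act in survival or stress apart from the adhesion gene Icam1, 2 had higher and 6 lower values (median log2 fold change -0.26, 0 past the test). Bcl2, which protects resting T cells from apoptosis, was at 212.3 and 256.2 CPM in JAML-positive and 374.8 and 390.4 CPM in JAML-negative libraries, without overlap (-0.71, SE 0.22, unadjusted p = 0.0074, edgeR adjusted p = 0.609). Bcl2a1b, an A1 survival gene with near-identical copies that make its count uncertain, was at 136.7 and 86.1 CPM in JAML-positive and 48.2 and 70.1 CPM in JAML-negative libraries (0.90, SE 0.36, edgeR adjusted p = 0.609). Its copy Bcl2a1d had 1.01 (SE 0.50), and Gadd45b, a stress gene, -0.70 (SE 0.32).

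**Figure D4:**
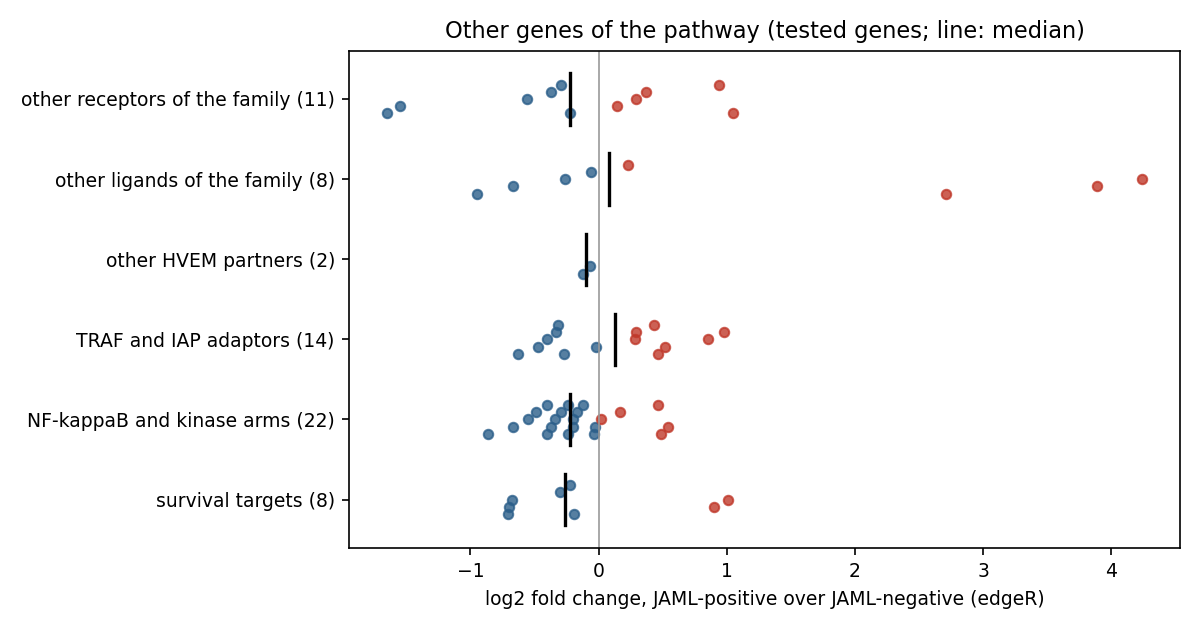
Log2 fold change, JAML-positive over JAML-negative, of each tested gene in 6 lists of the pathway, with the number tested in parentheses, red points above 0, blue points below and a black line at the median. The medians lie between -0.26 and 0.13, and the 3 points beyond 2 are the ligands Tnfsf9, Tnfsf11 and Cd40lg.

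Markers of antigen-presenting and antibody-producing cells, which themselves express genes of this family, were summed by list. The sums of the dendritic cell, macrophage and plasma cell lists did not overlap between the groups, where 38.5% of all single genes did not overlap either. Of these lists 0 genes passed the test, and 0 of all 11563 genes did. Of 10 dendritic cell and MHC class II genes 9 were at higher levels in JAML-positive cells, with summed levels of 485 to 679 CPM in JAML-positive and 280 to 285 CPM in JAML-negative libraries and no gene at 0 in either group. The exception was Itgax (log2 fold change -0.82, SE 0.31, edgeR adjusted p = 0.609). Siglech, among the higher genes, was at 56.4 and 48.8 CPM in JAML-positive and 5.70 and 0.472 CPM in JAML-negative libraries (4.07, SE 0.79, edgeR adjusted p = 0.477). Macrophage and monocyte markers (6 of 8 higher) summed to 160 to 203 CPM in JAML-positive and 76.2 to 80.2 CPM in JAML-negative libraries. Mpeg1 made up most of that difference in sums, at 119.0 and 89.6 CPM in JAML-positive and 7.50 and 13.9 CPM in JAML-negative libraries (3.28, SE 0.49, edgeR adjusted p = 0.227). Plasma cell markers (2 of 3 tested higher) summed to 117 to 165 CPM in JAML-positive and 53.7 to 65.6 CPM in JAML-negative libraries. Jchain made up most of that difference (log2 fold change 4.90, SE 0.82, edgeR adjusted p = 0.238). It was at 98.5 and 51.0 CPM in JAML-positive and 4.57 and 0.327 CPM in JAML-negative libraries. Xbp1 had -0.09 (SE 0.38). Which cells transcribed Jchain and Mpeg1 was not tested. Mzb1 and Sdc1 were at 0 in JAML-negative cells, but Sdc1 had 167 and 0 counts in JAML-positive libraries A and B. Tnfrsf17 was at 0 in JAML-positive cells and had 1 and 0 counts in JAML-negative libraries A and B. Natural killer cell markers had 2 higher and 2 lower values, with sums of 174 to 175 CPM in JAML-positive and 193 to 227 CPM in JAML-negative libraries, neutrophil markers summed to less than 1 CPM in every library, and hepatocyte markers to 14.5 to 14.9 CPM in JAML-positive and 4.25 to 23.9 CPM in JAML-negative libraries. The part of such cells in the values of Tnfsf9, Tnfrsf13b and the 9 genes was not tested.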

How the data were processed

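The values are whole-number counts per gene, as the authors deposited them, without normalization. Per the labels' protocols, RNA came from a column kit and libraries from a SMARTER mRNA-Seq kit. Per the submitters' processing notes, the genome build was GRCm38 (mm10). Which aligner, counter, strand setting and annotation were used is not given in the sources used here. From these counts, genes were kept with filterByExpr (minimum count 10) and tested with edgeR 4.0.16 (TMM factors, robust quasi-likelihood test, no covariate) in R 4.3.3, with Benjamini-Hochberg adjustment over all 11563 genes. The version 4 method of edgeR was made the main one after both it and the version 3 method had been run, and neither put a member past the threshold. The SE is the absolute log2 fold change over the square root of F, and 95% intervals use a t quantile. DESeq2 1.42.0, limma-voom (limma 3.58.1), other scalings and filters, a replicate block, removal of a length and GC trend, and leaving out each library were alternatives. Centred log2 CPM used a prior count of 2. Reads carry no molecular identifiers.

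The 9 genes and all lists (other receptors, ligands, HVEM partners, adaptors, NF-kappaB and kinase arms, survival targets, cell type markers) were chosen with earlier results of these data known. From each list other than those of cell type markers the text names in each direction at most 2 genes, those of smallest p and at least 10 CPM, and partners of the 9 genes. The genes named from the cell type marker lists did not follow that rule. RefSeq coordinates and promoter windows matched all 9 genes by Entrez identifier. GENCODE M21 transcript lengths matched 13585 genes (91.0%). The result of 1 marker list is not reported here.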

Additional observations from a re-analysis of the deposited data

How the results depend on the processing

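Over 13 alternatives, 1 of them (the version 3 quasi-likelihood method of edgeR) chosen after the data were seen, Tnfrsf9, Tnfrsf4, Tnfrsf18, Tnfrsf1b and Tnfsf14 kept the sign of their log2 fold change. Of the 9 genes Tnfrsf9 alone passed an adjusted p of 0.05, and only with DESeq2 (0.89). Without JAML-positive library A the log2 fold change was 0.75 for Tnfrsf9 and -2.77 for Tnfsf14. Without JAML-negative library A it was 0.81 for Tnfrsf9, -2.05 for Tnfsf14 and -1.26 for Tnfsf8. The number of genes past an adjusted p of 0.05 was 0 with edgeR, 2 with no filter on low counts, 885 with DESeq2, and 0 to 11 with 1 library left out, the 11 being without JAML-positive library B. With 1 library left out the log2 fold change ran from -0.26 to 0.44 for Cd27, from -0.15 to 0.28 for Tnfrsf14, from -1.47 to 0.57 for Tnfrsf25 and from -1.26 to 0.01 for Tnfsf8. In those fits the lone library is assumed to vary like the other group, and the median of all genes was 0.13 without either JAML-negative library. With the trend of fold changes with length and GC content removed, Cd27 came to -0.09 and Tnfrsf14 to -0.12, and 3 of the 9 genes were above 0. The cause of these changes was not tested. Other ligands with higher values numbered 4 to 8 (8 without JAML-negative library A), and HVEM partners 0 to 1, with 1 library left out. With replicate letters as a block Tnfrsf9 had 0.90 (edgeR adjusted p = 0.854), and the block changed no call. Deviations from the group means had r = -0.01 between same-lettered libraries, across 5757 genes. This value cannot show whether same-lettered libraries shared an animal, pool or sort, since variation of single libraries can hide a shared part. The level per kilobase with the mean coding length was 62.7 for Tnfrsf9, 122.0 for Cd27 and 104.0 for Tnfrsf14. With 2 libraries per group the median SE of a log2 fold change was 0.52 for genes of 10 to 100 CPM. Of the 9 genes all but Cd27 and Tnfrsf1b had means in that range, which limits what could be seen for them. The SE was largest for Tnfrsf25 (0.94).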

Other observations

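Library B was above library A in both groups for 4 of the 9 genes, below it in both for 2, and mixed for 3, where 49.3% of all tested genes had the same direction in both groups. The ratio of Tnfrsf9 to Cd27 counts, an inducible against a constitutive receptor within the same library, was 1.10 and 0.708 in JAML-positive libraries A and B, against 0.595 and 0.419 in JAML-negative libraries A and B, so that the groups did not overlap. Tnfrsf9 by itself did not overlap either, so that this ratio is not separate evidence. The ratio of Tnfrsf14 to Tnfsf14 counts, receptor to ligand, was 6.66 and 19.0 in JAML-positive and 5.68 and 1.97 in JAML-negative libraries. Library A of each group was close in this ratio. Tnfsf14 by itself did not overlap, so that this ratio is not separate evidence either. The ratio of Tnfrsf18 to Tnfrsf4 counts was 2.84 and 3.67 in JAML-positive and 2.57 and 4.71 in JAML-negative libraries, and overlapped. These ratios were chosen after the values were seen and were not tested.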
